A study of Drosophila melanogaster with 16 samples.

Results

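The comparison described here sets 3 samples of arsenite-treated S2 cells against 3 samples of arsenite-treated larval brain cells, 6 of the 16 samples of the series. It covers the 2035 of 5003 genes in the authors' bulk table whose A-to-G sites were covered by at least 20 reads in each of the 6 samples. These genes held 24807 of the 32873 sites that passed the quality limit. From that table genes were chosen by reads at their called sites, and not by editing level itself. A gene with more called sites passes this limit more easily. Among the genes compared, those with more sites tended to be more edited (Spearman's coefficient with the order by editing 0.31 in S2 cells, 0.23 in brain). The sites themselves were called by the authors as variants over all libraries together, a choice that leans to strongly edited libraries. The limit did not fall at a step in the data, since the 57 genes whose lowest sample had 19 reads had median levels of 20.5% in S2 cells and 5.99% in brain, and the 43 genes at 20 reads had 18.9% and 5.56%.

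FMR1, the Drosophila ortholog of the fragile X protein, is an RNA-binding protein that represses translation and moves into stress granules, the cytoplasmic condensates of stalled mRNAs and proteins that form when translation initiation stops. Sodium arsenite, which causes oxidative stress, is a standard way to induce them. In the hyperTRIBE design the RNA-editing part of ADAR is attached to FMR1. It converts adenosines to inosines, which sequencers read as G, so that RNAs held close to the fusion collect A-to-G changes. In neurons FMR1 is also known for transporting and silencing mRNAs.

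S2 cells are a line derived from Drosophila embryos with hemocyte-like properties. They were stably transfected with FMR1-ADARcd-V5 under the metallothionein promoter pMT, induced with 1 mM copper sulfate for 4 h and then kept for 4 h in 0.5 mM sodium arsenite in Schneider's medium. The brain cells came from L3 larvae that carried a UAS transgene of FMR1-ADARcd-V5 with an EGFP reporter, together with the driver elav-GeneSwitch-Gal4, with which the drug RU486 switches the fusion on in neurons. Brains of several larvae were pooled, dissociated and kept in the same arsenite dose for the same 4 h, without copper. Each tissue also had 3 samples kept in Schneider's medium alone and 1 uninduced sample. By the paper's account the larvae were induced for longer before arsenite than the S2 cells. Tissue, promoter, inducer, length of induction and the source of the cells therefore changed together and cannot be told apart. Glia are present in the dissociated brain but are not a target of the elav driver, and fewer cells of a type and less RNA per cell cannot be told apart in bulk samples. The brain samples are described as biological triplicates and the S2 samples as triplicate experiments. The p-values measure the spread between these samples. An adjusted p given below is from limma with Benjamini-Hochberg adjustment over all genes or sites tested, and a gene or site was called where it was under 0.05.

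Reads at A-to-G sites were between 381559 and 412534 per S2 arsenite sample and between 296209 and 340520 per brain arsenite sample, and the median gene compared had between 101 and 109 reads in S2 cells and between 77 and 91 in brain. The labelled tissues were checked by reads at all variant sites of marker genes. The summed level of 6 neuron markers was between 2077 and 2467 per 1000000 such reads in brain and between 60.8 and 74.3 in S2 cells, and that of 5 neuroblast markers was between 1602 and 2052 in brain and between 7.64 and 15.2 in S2 cells. The 6 glia markers summed to between 441 and 518 in brain and between 40.6 and 78.1 in S2 cells. Among them moody went the other way, with 24, 32 and 19 reads in S2 cells and 11, 12 and 6 in brain. The 11 hemocyte markers summed to between 2876 and 3003 in S2 cells and between 210 and 328 in brain. In S2 cells Hml, He, NimC1, eater, Ppn and Sr-CI were at 0, and in brain Hml, He, NimC1, eater and Sr-CI. Rbp9 was at 0 in both. No variant site was listed for 1 neuron marker and 5 hemocyte markers, so their zeros say nothing about expression.

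Arsenite-treated S2 cells were edited more than arsenite-treated brains at almost every gene. The average editing frequency is the mean of edited over total reads, over a gene's A-to-G sites with reads in the sample. Over the 2035 genes it averaged 20.5%, 20.2% and 20.8% in S2 replicates 1 to 3. In brain replicates 1 to 3 it averaged 10.4%, 7.60% and 6.98%. The S2 samples lay close together, while brain replicate 1 stood above the other two. The means were 20.5% ± 0.32 (SD, n = 3) and 8.34% ± 1.85 (SD, n = 3), a difference of 12.2 percentage points and a ratio of 2.46. The groups did not overlap, and the exact two-sided permutation test gave p = 0.1, the smallest value that 3 against 3 samples allow. In Schneider's medium the means were 10.7% ± 0.14 (SD, n = 3) and 3.84% ± 0.43 (SD, n = 3), a ratio of 2.78. The uninduced samples averaged 0.72% in S2 cells and 0.75% in brain, so both tissues stood far above the level without induction. At 20 genes no edited read was seen in any brain arsenite sample, and at 4 genes none in any S2 arsenite sample.

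**Figure D1:**
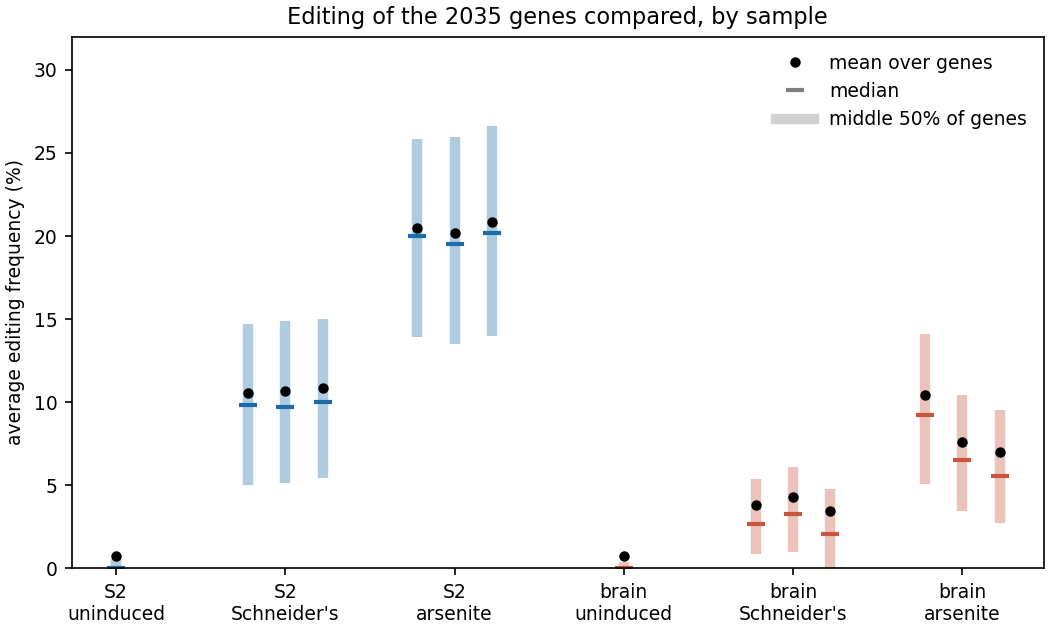
Average editing frequency in percent (y axis) over the 2035 genes compared, for each of the 14 bulk samples grouped by tissue and condition (x axis). Black dots are means over genes, coloured dashes medians and pale bars the middle 50% of genes. The S2 arsenite means sit between 20.2% and 20.8%, the brain arsenite means between 6.98% and 10.4%, and both uninduced samples are below 1%.

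Gene by gene, the mean level was higher in S2 cells for 1980 genes and higher in brain for 55. Of the 2035 genes, 1456 were called higher in S2 cells (71.5%) and 10 higher in brain (0.491%), while the 3 values of each tissue did not overlap at 75.4% of genes with S2 cells higher and at 0.59% with brain higher. The median gene was edited 2.58 times as strongly in S2 cells as in brain, with quartiles of 1.94 and 3.74 over the 2015 genes with an edited read in brain. When each frequency was divided by the mean of its sample, which removes the overall gap, 33 genes were called higher in S2 cells and 27 higher in brain. The order of genes within a sample was therefore compared as well as the level.

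Towards S2 cells, the largest differences in level among genes with at least 3 sites belonged to genes highly edited there. Most of these genes had few reads. CG14803, an uncharacterised gene on chromosome X, had 60.3%, 61.9% and 44.5% in S2 cells and 5.71%, 4.00% and 0% in brain, a difference of 52.3 points (SE 4.77, adjusted p = 0.0011). Part of its S2 level was present without induction, since its 5 sites averaged 20% in uninduced S2 cells. Taf2, a subunit of the general transcription factor TFIID, had 54.0%, 32.4% and 36.8% in S2 cells and 6.25%, 5.95% and 0% in brain over 8 sites, with no edited read in either uninduced sample. The difference was 37.0 points (SE 5.52, adjusted p = 0.0023).

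Fas1, which encodes the homophilic adhesion protein Fasciclin 1 of axons, had 47.3%, 31.6% and 54.1% in S2 cells and 7.55%, 13.9% and 4.22% in brain. Mctp, a membrane protein of the endoplasmic reticulum with calcium-binding C2 domains, had 32.3%, 46.0% and 38.8% against 1.79%, 10.1% and 1.79%. Both were called, with adjusted p of 0.0027 and 0.0016, and neither gene's values overlapped between tissues. CG32000, a P-type ATPase gene on chromosome 4, stood at 47.2% against 7.50%, and CG5235 at 46.0% against 11.2%. The S2 means of these genes lay among the highest, while their brain means ran from 3.24% to 11.2%. Of these 6 genes CG14803 and Taf2 were also called in rank. CG14803 lost that call without S2 replicate 2 (adjusted p up to 0.066), and Taf2 lost it without any 1 of the S2 samples or without brain replicate 1 (adjusted p up to 0.12). On the scale divided by sample means CG14803 kept its call in level and the other 5 did not.

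Among genes called higher in brain, those with G reads without induction came first. The mitochondrial genes mt:CoI, mt:CoIII and mt:ATPase6, which encode subunits of cytochrome c oxidase and ATP synthase, each had 1 site. The mt:CoIII site was at position 5212 (aAa in the RNA's 5′ to 3′ order with the changed base in capitals). There 0 of 234 reads carried G in arsenite-treated S2 cells, which allows up to 1.28%. In brain 128 of 128 did, and in the uninduced brain 63 of 63. The mt:ATPase6 site (4620) had G in 180 of 181 reads in brain and 53 of 53 in uninduced brain. At the mt:CoI site (1836) these were 218 of 218 and 101 of 102. Whether the G reads at these sites came from editing was not tested. CR45926, a non-coding gene with 1 site, stood at 43.2% in brain arsenite and 73.7% in uninduced brain. RpL7A, a protein of the large ribosomal subunit with 2 sites, had 36.6%, 36.1% and 28.3% in brain and between 1.82% and 3.28% in S2 cells, but 28.3% in uninduced brain. Hsromega, the heat shock non-coding RNA of the nuclear omega speckles, had 20.9%, 20.7% and 29.2% in brain, between 0.37% and 1.39% in S2 cells and 31.8% in uninduced brain. Once sites with an edited read in either uninduced sample were left out, 70.9% of the 1945 genes left were called higher in S2 cells, no gene was called higher in brain in level by limma, and none had an unadjusted p under 0.05 in that direction. Only 3 of the 10 genes higher in brain still reached the read limit, so this count is largely set by the limit. The Hsromega difference turned to 3.49 points higher in S2 cells and was not called (adjusted p = 0.30).

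Nrt and CR43283 were the 2 genes higher in brain that stayed called when sites edited without induction were left out and the genes compared were kept, a choice made after seeing the data. Nrt encodes Neurotactin, a transmembrane cell adhesion protein of axons and epithelia, on chromosome 3L from 16766072 to 16777465. Its 13 sites averaged 17.3%, 19.9% and 9.12% in brain and 4.86%, 0% and 5.56% in S2 cells, with 0.55% in uninduced brain. A site without reads in a sample did not count there, so the tissues need not be averaged over the same sites. The uninduced S2 sample had 4 reads, too few to give a level. All 3 brain values were above all 3 S2 values, with a mean difference (S2 cells minus brain) of -11.97 points (SE 3.35, adjusted p = 0.017), and of -9.17 points without the sites edited in uninduced samples (adjusted p = 0.036). In Schneider's medium Nrt stood at 3.08% ± 1.35 (SD, n = 3) in brain and 3.03% ± 5.25 (SD, n = 3) in S2 cells. Nrt did not have 20 reads in every one of the 12 induced samples, so its gain under arsenite was not tested. Nrt had 97 reads in the S2 samples together and 1257 in brain, and the call in level was lost in 7 of 15 alternatives, among them those without S2 replicate 2 or without brain replicate 2 and that with reads pooled over its sites (adjusted p from 0.0052 to 0.25).

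CR43283, a long non-coding gene on chromosome 3R from 11247631 to 11256123, had 19.0%, 18.6% and 18.1% over 42 sites in brain and 5.56%, 11.4% and 0% in S2 cells. The brain values were within 1 point of each other and well above the S2 values, with a mean difference of -12.9 points (SE 3.12, adjusted p = 0.0099). Unlike Nrt it stood at the same level in brain without stress, 18.8% in Schneider's medium, against 4.55% in S2 cells, and at 1.01% in uninduced brain. It was read 5877 times in brain and 123 times over its 42 sites in S2 cells. Its S2 level is thus the less certain one and need not rest on the same sites. The call was lost on the log2 odds scale and in a quasi-binomial fit (adjusted p up to 0.079). lap, which encodes a clathrin adaptor of synaptic vesicle endocytosis, had 26%, 23.2% and 33.1% in brain and 19.8%, 7.69% and 10.9% in S2 cells (adjusted p = 0.015), with 4.17% in uninduced brain, and lost its call without sites edited in uninduced samples (adjusted p = 0.13) and without brain replicate 3. Ip259, with 1 site, made up the 10 (16.5% in brain, 1.79% in uninduced brain).

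**Figure D2:**
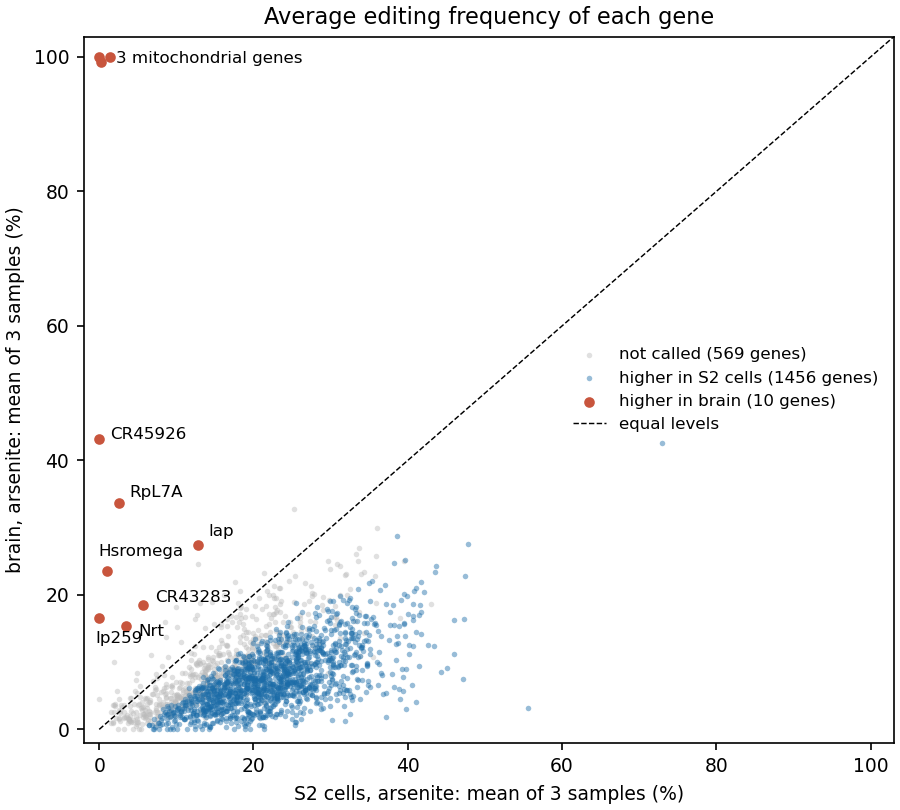
Mean average editing frequency of each of the 2035 genes in arsenite-treated S2 cells (x axis, percent, 3 samples) and arsenite-treated brain (y axis, percent, 3 samples), coloured by the call in level, with a dashed line of equal levels. Of the genes, 1456 were called higher in S2 cells and 10 higher in brain, of which 3 are mitochondrial with about 100% in brain.

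The order of genes agreed in part between the tissues. A percentile rank was given to each gene within each sample, from 0 for the least to 100 for the most edited of the 2035. Across genes, which are not independent replicates and share the called sites, Spearman's coefficient was between 0.67 and 0.70 for pairs of S2 samples, between 0.54 and 0.56 for pairs of brain samples, and between 0.39 and 0.45 for an S2 sample against a brain sample. With at least 100 reads in each sample (610 genes) these ranges were 0.75 to 0.78, 0.66 to 0.72 and 0.48 to 0.55. Pairs between tissues were thus less alike than pairs within a tissue at both depths. Of the 509 genes above the upper quartile of mean rank in S2 cells, 267 were above the upper quartile in brain and 26 below the lower one. Of the 509 below the lower quartile in S2 cells, 292 were below it in brain and 25 above the upper one.

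In rank, 39 genes were called higher in S2 cells (1.92% of those tested) and 34 higher in brain (1.67%), 3.59% in either direction. All 39 were also called higher in level in S2 cells, and of the 34, 10 were called higher in level in brain and 24 were not called in level. The standard error of a rank difference had a median of 11.2 percentile points, so moderate differences in order were not detectable, and a gene that was not called is not shown to hold the same rank. The calls were few and depended on single samples, since leaving out S2 replicate 1, 2 or 3 gave 9, 3 and 8 calls towards S2 cells and 20, 11 and 15 towards brain. Leaving out brain replicate 1, 2 or 3 gave 32, 19 and 18 calls towards S2 cells and 22, 18 and 21 towards brain. Sites with G reads in an uninduced sample weighed on them as well. Without such sites 10 and 8 genes were called (0.514% and 0.411% of 1945, 0.925% in either direction), and 9 of the 39 and 6 of the 34 were among them. Of the 39 and 34 genes, 36 and 25 still reached the read limit, and with the genes compared kept 15 and 13 were called. An uninduced level above 5% was present in S2 cells for 9 of the 39 and in brain for 13 of the 34, against 74 and 44 of all 2035 genes.

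Among genes placed higher in S2 cells, lds, Rab6 and olf186-F had little or no such background. lds (lodestar), a helicase-like ATPase of mitosis and transcription termination on chromosome 3R from 7920431 to 7924491, had 29.4%, 26.3% and 34.8% in S2 cells and 2.10%, 2.27% and 0% in brain over 11 sites. Its ranks were 84.2, 76.0 and 92.0 in S2 cells and 9.34, 16.6 and 4.99 in brain, a difference of 73.7 percentile points (SE 7.74, adjusted p = 0.0062). Rab6, a small GTPase of Golgi traffic on chromosome 2L, had 27.0%, 25.6% and 24.0% in S2 cells and 3.23%, 0% and 0% in brain over 8 sites. Its rank difference was 64.7 points (SE 7.44, adjusted p = 0.0085), and no read of either uninduced sample was edited. olf186-F, the Drosophila Orai channel of store-operated calcium entry, had 27.4%, 38.5% and 31.8% against 5.62%, 1.11% and 0%, a rank difference of 73.6 points (SE 9.29, adjusted p = 0.013). All 3 were called too without the sites edited in uninduced samples (adjusted p = 0.043 each). Without S2 replicate 2 Rab6 and olf186-F lost their calls, olf186-F also without S2 replicate 3, and lds kept its call without any 1 of the samples but not with reads pooled over its sites (adjusted p = 0.11).

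Other genes placed higher in S2 cells were called less firmly. Pvr, the PDGF and VEGF receptor tyrosine kinase of hemocytes and epithelia, had 21.1%, 31.5% and 23.7% over 26 sites in S2 cells and 0%, 0% and 1.79% in brain. It had 1449 reads in S2 cells and 77 in brain, and its rank difference of 61.7 points (SE 10.6, adjusted p = 0.033) was not called when any 1 of the 6 samples was left out (adjusted p up to 0.12). CG6479, of no assigned function in the files, had 30%, 29.9% and 27.1% against 7.02%, 2.5% and 0% (rank difference 62.3 points, adjusted p = 0.029) and lost its call in 9 of 13 alternatives (adjusted p up to 0.11). Kcmf1, a zinc-finger ubiquitin ligase with 2 sites, had 39.3%, 50% and 30.0% against 6.07%, 2.94% and 0% (rank difference 74.2 points, adjusted p = 0.013). Vps35, the core subunit of the retromer that sorts endosomal cargo, had 33.1%, 35% and 30.7% against 8.82%, 3.87% and 2.38% (adjusted p = 0.028 in rank). dlg1, the septate junction and synapse scaffold Discs large, had 20.5%, 27.1% and 31.8% against 2.23%, 3.25% and 2.00% (adjusted p = 0.048 in rank). In none of these genes did the tissues overlap in level. Kcmf1, Vps35 and dlg1 each lost its call in rank without some single samples, S2 replicate 2 among them for all 3 (adjusted p up to 0.074 for Kcmf1, 0.13 for Vps35 and 0.15 for dlg1).

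Syx1A, Vha55 and Klp61F carried G reads in uninduced S2 cells. Syx1A, the plasma membrane SNARE of neurotransmitter release, ranked at 79.7, 87.7 and 99.6 in S2 cells and 10.8, 18.4 and 10.5 in brain. Its 14 sites averaged 27.7%, 31.0% and 53.0% in S2 cells but 18.8% in uninduced S2 cells, and without the sites edited in uninduced samples its rank difference was 45.3 points and was not called (adjusted p = 0.22). Vha55, a subunit of the vacuolar proton pump, stood at 31.9% against 1.18%, with 20% in uninduced S2 cells, and its rank difference went from 78.1 to 18.0 points without those sites. Klp61F, the kinesin-5 motor of the mitotic spindle, stood at 29.1% against 5.43% with 11.1% in uninduced S2 cells, and its rank difference went from 44.0 to 7.80.

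Genes placed higher in brain were not called in level, apart from the 10 named above. raw, a regulator of JNK signalling in dorsal closure and gonad development, had 25.3%, 13.9% and 12.1% in brain and 17.1%, 9.03% and 12.0% in S2 cells. These levels overlapped, but its ranks were 96.4, 87.7 and 83.8 in brain against 36.9, 10.8 and 18.1 in S2 cells, a difference of -67.4 points (S2 cells minus brain, as throughout, SE 9.21, adjusted p = 0.017), and it was called too without sites edited in uninduced samples (adjusted p = 0.043), but not without S2 replicate 2 or 3 or brain replicate 2 (adjusted p up to 0.090). lola, a BTB zinc-finger transcription factor of axon guidance with many isoforms, had 15.7%, 17% and 14.5% in brain and 20.7%, 18.8% and 16.5% in S2 cells. It ranked at 79.7, 93.9 and 90.2 in brain against 53.1, 46.8 and 33.8 in S2 cells (difference -43.4 points, SE 8.39, adjusted p = 0.048). Its sites averaged 10% in uninduced S2 cells and 3.35% in uninduced brain. Without the sites edited there the lola rank difference was -68.1 points (adjusted p = 0.043), and with all sites it lost its call without any 1 of the 6 samples (adjusted p up to 0.26).

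Cip4, an F-BAR protein that couples membrane curvature to actin, ranked at 87.9, 85.2 and 73.3 in brain and 20, 2.02 and 14.7 in S2 cells, while its level of 13.8% against 8.62% was not called (adjusted p = 0.23). Without the sites edited in uninduced samples its rank difference went from -69.9 to -9.18 points. CG2765, uncharacterised, went likewise from -71.5 to -20.4 points. Act5C, a cytoplasmic actin read 2004 times in S2 cells and 1217 times in brain, showed how 1 site can set a rank. It had 12.8%, 13.0% and 11.5% in S2 cells and 16.1%, 17.3% and 15.9% in brain, but 14% in uninduced brain. At its coding site X:5902796 (cAt) 1 of 173 reads carried G in S2 cells and 137 of 151 in brain, and 49 of 50 in uninduced brain. Whether these came from editing was not tested. Without the sites edited in uninduced samples Act5C was 10.4 points higher in S2 cells (adjusted p = 0.0048), and its rank difference was -0.69 points.

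**Figure D3:**
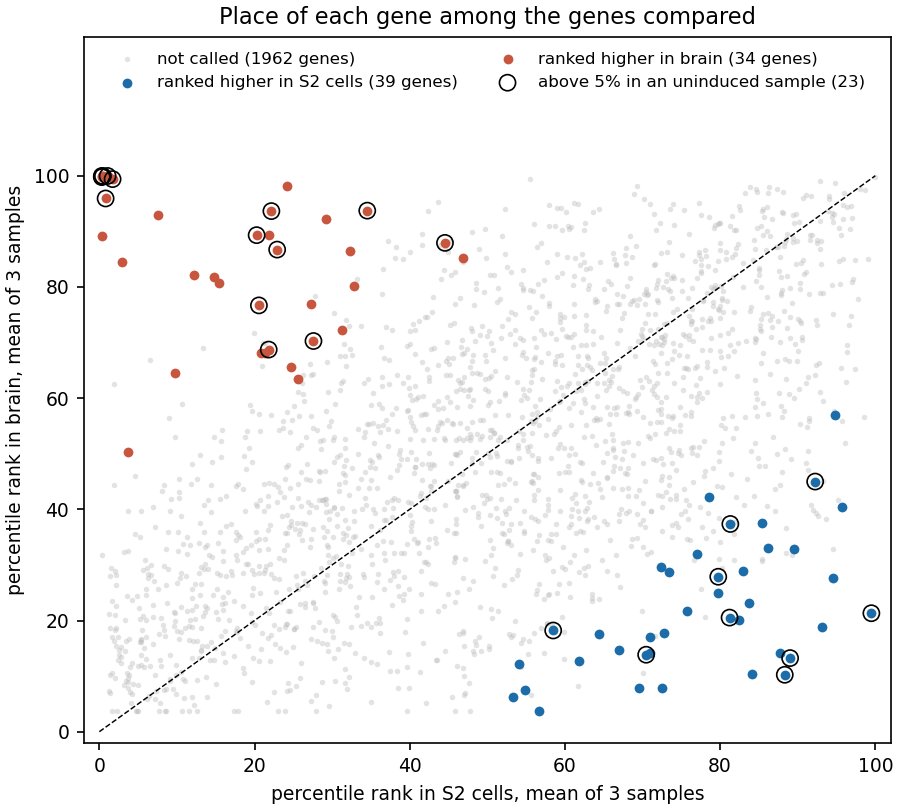
Mean percentile rank of each of the 2035 genes in arsenite-treated S2 cells (x axis) and brain (y axis), from 0 for the least to 100 for the most edited, 3 samples each, coloured by the call in rank. Circles mark the 23 called genes with an uninduced level above 5%. Genes called higher in S2 cells (39) lie to the lower right and those higher in brain (34) to the upper left, with 1962 genes not called.

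Reads, lengths and site numbers of the called genes were set beside those of all genes. Reads of a gene, as a share of all reads at A-to-G sites, were higher in S2 cells for 27 of the 39 genes ranked higher there and for 10 of the 34 ranked higher in brain, against 951 of all 2035. Across the 2035 genes the rank difference and the log2 ratio of read shares had a Spearman coefficient of 0.22, and both contain the reads of the same libraries. Median exon length was 3394 nt for the 39, 3676 nt for the 34 and 3508.5 nt for all genes with a length, and median site number was 10, 8 and 9. Longer genes ranked higher in both tissues, with a coefficient between rank and exon length of 0.36 in S2 cells and 0.33 in brain. In Schneider's medium 36 of the 39 genes had a higher mean rank in S2 cells and 30 of the 34 a higher mean rank in brain. The median differences there were 24.4 and -48.5 points, against 54.0 and -63.4 in arsenite. These genes were chosen by their ranks in arsenite. The share of all genes with the same direction in both conditions was not counted, and ranks in Schneider's medium were not tested alone. The sites that were edited without induction are part of both conditions.

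Some genes were strongly edited in both tissues. Nf-YC, a histone-fold subunit of the CCAAT-binding factor NF-Y, had 38.9%, 30.7% and 38.5% in S2 cells and 30.0%, 26.4% and 33.4% in brain over 5 sites, with no edited read in either uninduced sample. These values overlapped, and the difference of 6.13 points (SE 3.15) was not called (adjusted p = 0.11). TfIIFbeta, a subunit of the general transcription factor TFIIF, had 43.6%, 32% and 40.0% against 26.9%, 27.0% and 32.1% and was called higher in S2 cells (adjusted p = 0.036), a call lost in 8 of 17 alternatives, those without S2 replicate 1 or 3 or brain replicate 1 or 2 included (adjusted p up to 0.11). Divided by sample means it stood higher in brain without a call, as any gene with a tissue ratio (here 1.34) below that of the means must. SA, the Stromalin subunit of cohesin, had 42.3%, 20.8% and 44.6% against 26.7%, 20.6% and 30.0%. bchs, the Alfy-related autophagy protein Blue cheese, had 18.1%, 14% and 43.5% against 43.3%, 27.3% and 27.8%. CG2982, CG17068, CG8878 and CG1582 made up the 8 genes with the highest lower tissue mean, with brain means between 25.1% and 27.6% and S2 means between 33.3% and 47.8%. In brain these 8 genes ranked at 96.8 or above on average, and bchs, whose S2 samples spread widely, had the lowest mean S2 rank (55.5). Bub3, a spindle checkpoint protein with 1 site, was higher still, at 72.9% and 42.6%.

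At the other end, the 4 most read of the 60 genes with the lowest levels were Trx-2, CCT2, Mpcp2 and eIF3m, which were chosen for these properties. Trx-2, a thioredoxin, had 1.34%, 5.36% and 2.84% in S2 cells and 3.53%, 1.85% and 2.21% in brain, over 904 and 360 reads. CCT2, a subunit of the cytosolic chaperonin, stood at 3.46% and 1.91%, Mpcp2, the mitochondrial phosphate carrier, at 4.88% and 1.5%, and eIF3m, a subunit of translation initiation factor 3, at 4.72% and 2.51%. None of these 4 genes was called in level, with adjusted p between 0.14 and 0.78.

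**Figure D4:**
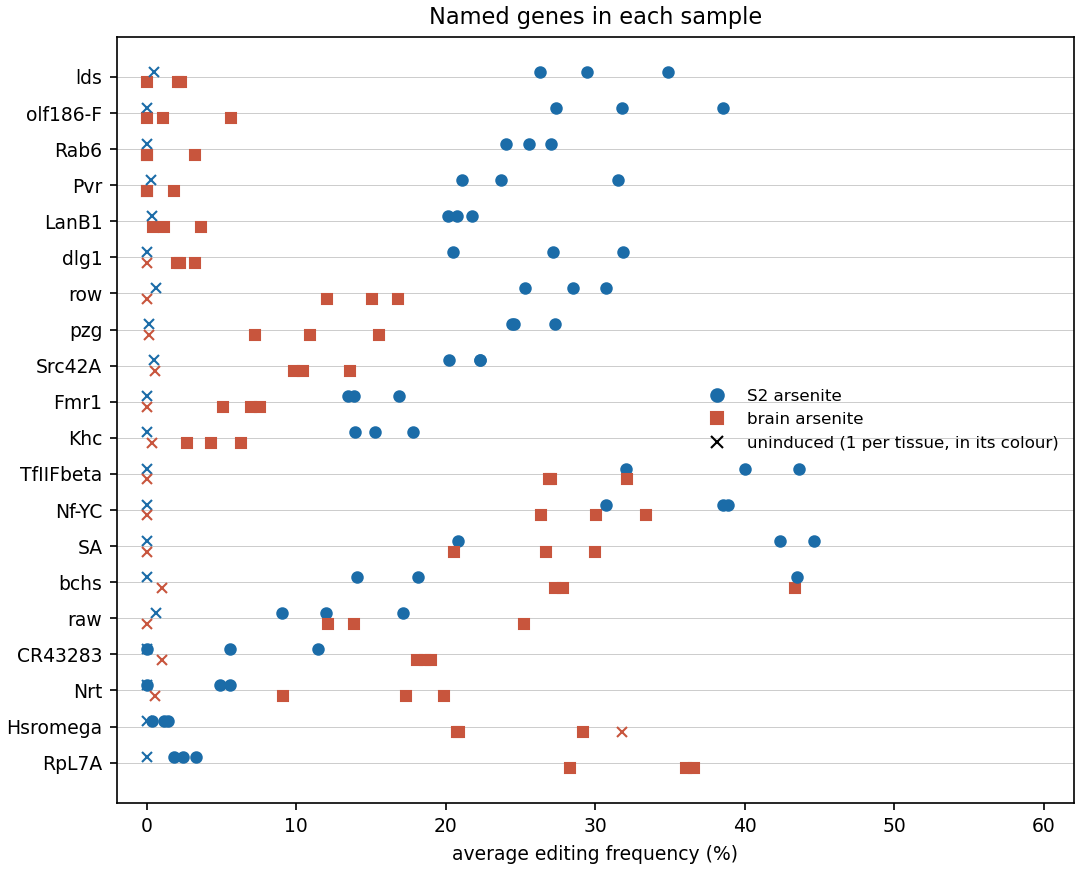
Average editing frequency in percent (x axis) of 20 named genes (y axis) in each of the 3 S2 arsenite samples (blue circles), the 3 brain arsenite samples (red squares) and the uninduced sample of each tissue (crosses in the tissue's colour). From lds to Khc the tissues do not overlap with S2 cells higher, TfIIFbeta to raw overlap, and CR43283 to RpL7A are higher in brain, where Hsromega and RpL7A are as high without induction.

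Of the genes named by the study, 12 passed the read limit, counting Fmr1 and Adar. row, a zinc-finger protein of chromatin, had 25.3%, 30.7% and 28.5% in S2 cells and 15.1%, 12.1% and 16.8% in brain over 18 sites, a difference of 13.5 points (SE 2.46, adjusted p = 0.0038). Its ranks were nonetheless close, 72.3, 87.0 and 79.9 against 78.0, 81.7 and 94.3 (difference -4.92 points, SE 8.11, adjusted p = 0.77). pzg (putzig), a zinc-finger cofactor of Notch and DREF target genes, had 24.4%, 24.6% and 27.3% against 15.6%, 10.9% and 7.26%, with a rank difference of -0.48 points (SE 8.02). Src42A, a Src-family tyrosine kinase, had 20.2%, 22.3% and 22.3% against 10.4%, 9.82% and 13.6%, with a rank difference of -15.3 points (SE 9.73). Khc, the heavy chain of kinesin-1, had 17.8%, 13.9% and 15.3% against 6.28%, 4.31% and 2.68%, with a rank difference of 2.14 points (SE 7.37). All 4 were called higher in S2 cells in level and not called in rank. When the frequencies were divided by the sample means, row, pzg and Src42A stood higher in brain and were not called. Their tissue ratios of 1.92, 2.26 and 1.92 were below the 2.46 of the sample means, so that scale turns their direction by construction.

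cbt (cabut), a stress-responsive zinc-finger transcription factor, stood at 20.7% ± 2.68 (SD, n = 3) against 4.92% ± 1.60 (SD, n = 3), and wal, the electron transfer flavoprotein subunit Walrus, at 19.8% ± 4.16 (SD, n = 3) against 8.91% ± 2.03 (SD, n = 3). Both were called in level (adjusted p = 0.0022 and 0.012), and divided by sample means wal stood higher in brain without a call. Cyt-c-p, cytochrome c, had 10.1%, 13.8% and 10.3% in S2 cells over 3 sites, and 0 of 93 brain reads were edited, which allows a share of up to 3.23% (counting error only). wdn (wings down), a zinc-finger protein, had 29.6%, 17.4% and 21.4% against 25.6%, 11% and 11.4% and was not called (adjusted p = 0.23). Rack1, a scaffold protein of the small ribosomal subunit, stood at 5.98% and 2.03% and was not called either (adjusted p = 0.10), at ranks between 4.38 and 6.34 in S2 cells and between 12.0 and 17.6 in brain. The fusion itself carries Fmr1 and Adar sequence, and reads of the fusion and of the endogenous genes cannot be told apart. Fmr1 had 5225 reads in S2 cells and 1384 in brain, Adar 7775 and 1852. Their levels were 14.7% and 6.56% for Fmr1 (adjusted p = 0.013) and 12.7% and 6.15% for Adar (adjusted p = 0.022). The Adar call was lost without S2 replicate 1, without brain replicate 2 or 3 and with no limit on reads, and on the scale divided by sample means both genes, with ratios below 2.46, stood higher in brain without a call.

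The other 6 genes of the study did not reach the read limit in all 6 samples. mira, the neuroblast adaptor Miranda, had 3 reads in S2 cells, with none edited, and 613 in brain, with 54 edited. eIF6, an anti-association factor of ribosomal subunits, had 33 of 192 edited reads in S2 cells and 12 of 75 in brain, red 24 of 144 and 0 of 56, geminin, the inhibitor of replication licensing, 22 of 129 and 2 of 24, Prosbeta4, a proteasome subunit, 9 of 151 and 0 of 53, and kermit 5 of 18 and 0 of 5.

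Gene groups were described by their members' counts and medians beside those of all 2035 genes, whose median level was 20.3% in S2 cells and 7.32% in brain. Ribosomal protein mRNAs were at the low end in both tissues. Of 37 compared, 7 were called higher in S2 cells, 1 (RpL7A) higher in brain and 29 not called, and their medians were 6.14% and 3.37%, at median ranks of 6.28 and 22.2. RpL4 was called higher in rank in brain (difference -37.8 points, adjusted p = 0.046), with 11.3%, 8.34% and 7.72% there and 12.6%, 16.0% and 13.3% in S2 cells, a call lost in 12 of 17 alternatives, those without any 1 of the 6 samples and without the sites edited in uninduced samples included (adjusted p up to 0.31). Respiratory chain mRNAs had 10 of 21 members called higher in S2 cells and medians of 11.4% and 5.02%. Translation factors had 16 of 26 and medians of 12.1% and 3.93%, chaperones 16 of 25 and 12.2% and 4.63%, and proteasome and ubiquitin genes 20 of 37 and 13.4% and 5.70%. In these 5 groups the share called higher in S2 cells was below the 71.5% of all genes. The share was also below 71.5% in other groups described below, such as tyrosine kinase signalling (62.5%) and cell cycle genes (63.6%). None of the members of the 5 groups but RpL7A was called higher in brain. The median site number was 2 for ribosomal protein genes, 4 for respiratory chain genes and 5 for proteasome and ubiquitin genes. For translation factors and for chaperones it was 8, against 9 for all genes. Genes with more sites tended to rank higher in both tissues, and the part of site number in these low levels was not tested.

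Groups nearer to the median of all genes included mRNAs of RNA-binding and granule proteins, with 28 of 33 called higher in S2 cells and medians of 21.2% and 7.83%, at median ranks of 55.8 and 53.7. Vesicle traffic genes had 31 of 42 and medians of 19.4% and 6.12%, actin and tubulin genes 22 of 33 and 17.3% and 5.61%, cell cycle genes 21 of 33 and 22.2% and 8.17%, motors 13 of 17 and 23.0% and 7.11%, tyrosine kinase signalling genes 10 of 16 and 24.6% and 9.24%, and aminoacyl-tRNA synthetases 10 of 15 and 19.3% and 6.92%. Chromatin genes (28 of 39, medians of 20.7% and 10.3%) and transcription factors of the zinc-finger kind (15 of 21, 20.7% and 10.6%) had median ranks of 53.1 and 52.7 in S2 cells and 69.3 and 68.1 in brain. In both groups lola was the 1 member called in rank.

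Genes of hemocytes and the extracellular matrix stood low in brain. All 8 compared (Col4a1, Glt, LanA, LanB1, LanB2, Pxn, crq and ush) were called higher in S2 cells, beside 71.5% of all 2035 genes. Their medians were 19.0% and 2.75%, at median ranks of 45.6 and 18.6. LanB1, the beta chain of laminin on chromosome 2L from 7811438 to 7820771, had 20.1%, 21.7% and 20.7% over 67 sites in S2 cells and 3.62%, 1.15% and 0.39% in brain (rank difference 41.9 points, SE 6.93, adjusted p = 0.030). It was the 1 member called in rank, a call lost in 11 of 16 alternatives, those without any 1 of the 6 samples included (adjusted p up to 0.54), and was read 3191 times in S2 cells and 796 times in brain. Hemocyte markers were fewer in the brain samples by the read shares given above, and which brain cells the reads came from was not tested.

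Neural groups were thinly covered at the read limit, and which tissue fell short for each gene was not counted. Of 37 neuronal and synaptic genes with editing values, 6 passed the read limit, and 4 of these were called higher in S2 cells, with medians of 19.4% and 7.85%. unc-13, the priming factor of synaptic vesicles, stood at 1.90% in S2 cells and 10.1% in brain without a call. Of 44 adhesion and guidance genes 22 passed, 17 were called higher in S2 cells and Nrt higher in brain, with medians of 21.9% and 9.14%. robo1, the Slit receptor, stood at 31.7% and 19.2% and was called, and shg, which encodes E-cadherin, at 31.2% and 19.9% without a call. Of 32 neuroblast genes 12 passed and 9 were called higher in S2 cells. The shares called were 66.7% of the neuronal, 77.3% of the adhesion and 75% of the neuroblast genes, near the 71.5% of all 2035 genes. Imp, an mRNA-binding protein that sets neuroblast temporal identity, stood at 19.3% and 0.85% and was called, while the Notch receptor gene N stood at 18.4% and 18.2% without a call. Of 12 glia genes 3 passed, and Nrx-IV (16.9% and 9%) and pnut (16.5% and 7.04%) were called.

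**Figure D5:**
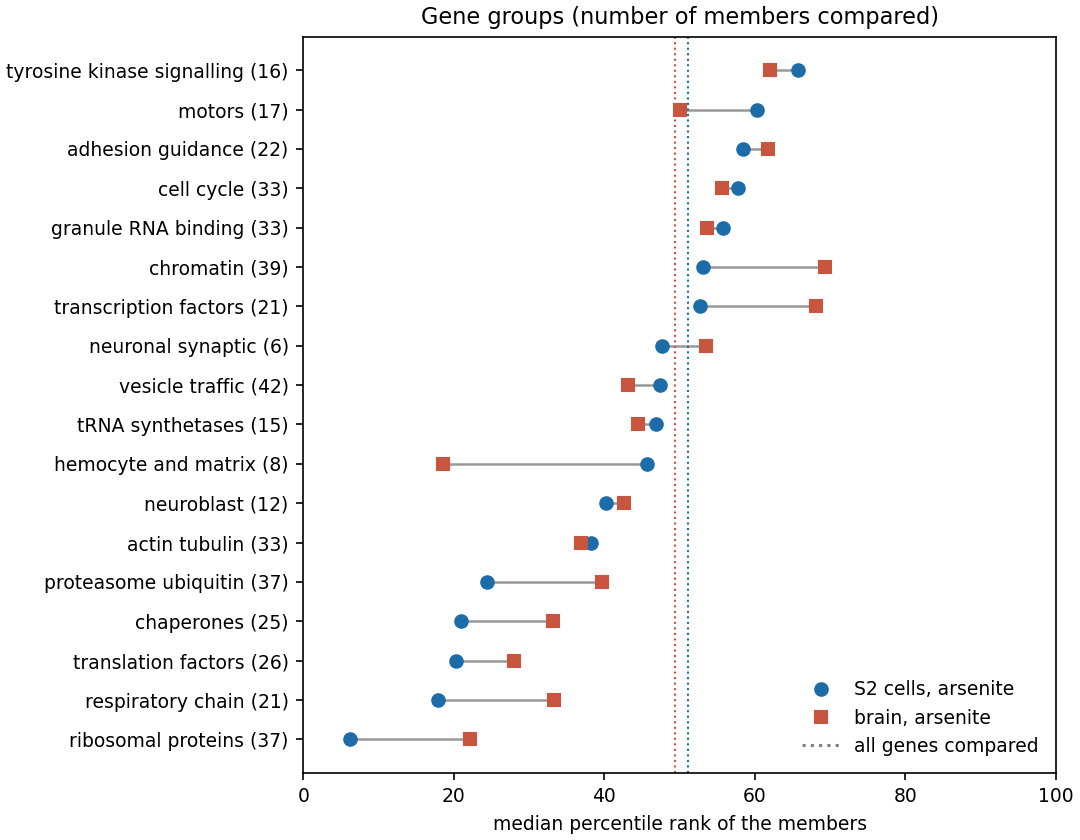
Median percentile rank (x axis) of the members of 18 gene groups with at least 5 members compared (y axis, number of members in brackets) in arsenite-treated S2 cells (blue circles) and brain (red squares), with dotted lines at the medians of all 2035 genes. Ribosomal protein genes lie lowest in S2 cells (6.28), and hemocyte and matrix genes lie lowest in brain (18.6).

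The tissue difference in arsenite was then set against that in Schneider's medium, over the 1853 genes that had 20 reads or more in every one of the 12 induced samples. Editing in arsenite was 1.89 times that in Schneider's medium in S2 cells and 2.15 times in brain on average over these genes. The gain in percentage points had a median of 9.48 in S2 cells and 3.83 in brain. For 172 genes (9.28%) the gain was larger in S2 cells and for 1 gene (0.054%), pico, larger in brain. No gene was called towards brain with pooled reads or with the replicate block. With frequencies divided by sample means the counts were 9 and 3 (0.486% and 0.162%, 0.648% together). In rank no gene was called by limma after adjustment, and 198 had an unadjusted p under 0.05 (10.7%, of which 5.56% towards S2 cells and 5.13% towards brain). The count of 172 was 334 without brain arsenite replicate 1, 70 and 34 without brain arsenite replicate 2 or 3, 41, 64 and 87 without S2 Schneider's replicate 1, 2 or 3, and 27, 32 and 40 without brain Schneider's replicate 1, 2 or 3.

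Single sites were compared where each of the 6 samples had at least 20 reads, which left 1280 sites of 452 genes, with a median edited share of 8.72% in S2 cells and 2.83% in brain. Of these, 408 were called higher in S2 cells (31.9%) and 12 higher in brain (0.938%), and 318 and 4 of them had no edited read in either uninduced sample. The 408 were 202 without brain replicate 2 and 185 without brain replicate 3. The following sites were the 4 with the largest difference towards brain among those free of that background, given with the base before and after the edited A (in capitals) in the orientation of the RNA.

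Hrb27C 2L:6925153: cAc
Rac1 3L:1302132: tAt
stg 3R:29253827: cAg
TfIIS 2L:15060224: aAg

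All lay in coding sequence. At the site in Hrb27C, an hnRNP of mRNA localisation, the edited shares were 11.6%, 25% and 22.4% in brain and 0%, 3.33% and 0% in S2 cells (adjusted p = 0.012). At the site in Rac1, a small GTPase of actin dynamics, 13 of 121 brain reads were edited and none in S2 cells, which allows up to 2.61% there (adjusted p = 0.0095). The stg site, in the gene of the mitotic phosphatase String, had 28.3%, 19.0% and 11.7% against 1.89%, 1.52% and 7.14% (adjusted p = 0.031). The TfIIS site, in the gene of a transcription elongation factor, had 42.3%, 16.7% and 12.5% against 0% in all 3 (adjusted p = 0.049). The stg and TfIIS calls were lost without any 1 of the S2 samples or without brain replicate 2, and the stg call also without brain replicate 1 (adjusted p up to 0.13).

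The 4 background-free sites with the largest difference towards S2 cells follow in the same notation.

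Pp1-87B 3R:12425402: aAg
Xrp1 3R:18920800: tAc
CG16817 3R:9678887: tAc
Acon 2L:21171341: aAc

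The site in Pp1-87B, a catalytic subunit of protein phosphatase 1, had 44.2%, 60.5% and 46.8% in S2 cells and 19.6%, 8.77% and 6.67% in brain (38.8 points, SE 5.26, adjusted p = 0.0046). Averaged over its 12 sites Pp1-87B was among the genes called higher in rank in brain, with 7.70% in uninduced brain. The site in Xrp1, a stress-responsive bZIP transcription factor, had 44.8%, 32.1% and 53.3% against 3.33%, 6.90% and 8.57%. The CG16817 site had 63%, 68.5% and 50% against 28.1%, 23.7% and 20.6%, and the Acon site, in a gene of mitochondrial aconitase, had 30 of 83 edited reads against 1 of 69.

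The 4 sites most edited in both tissues lay in Droj2, Hrb98DE and Xbp1. A coding site of Droj2, a DnaJ-type co-chaperone (3R:13384008, cAg), had 75%, 71.4% and 72.0% in S2 cells and 60.7%, 31.9% and 49.3% in brain (adjusted p = 0.030), a call lost without any 1 of the S2 samples or without brain replicate 3. A site in the 3′ UTR of Hrb98DE, an hnRNP of splicing and stress granules (3R:28604268, tAg), had 53.6%, 50% and 53.8% against 57.6%, 44.4% and 40.0%. At both Xbp1 sites, in the gene of the unfolded protein response transcription factor, the means were 58.5% and 48.7%, and 55.7% and 48.5%. The values of the last 3 sites overlapped between tissues and were not called. Divided by sample means these 3 sites were called higher in brain by limma (adjusted p = 6.5e-05 for Hrb98DE, 0.031 and 0.0031 for Xbp1). The choice of sites edited alike in both tissues fixes that direction.

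The bases around the sites were counted in each direction of difference. Among the 1280 sites 51.2% were followed by g and 4.77% were preceded by g, against 50% and 3.19% of the 408 higher in S2 cells, and 4 and 3 of the 12 higher in brain. Over the 1094 sites with no edited read in the uninduced samples, sites preceded by t had median shares of 8.62% in S2 cells and 2.66% in brain, and sites preceded by g had 6.22% and 1.71%. The median shares across sites thus lay lowest after g in both tissues. Spearman's coefficient between the tissue means of these 1094 sites was 0.54.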

How the data were processed

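Bulk libraries were made from total RNA. The submitters' processing notes name cutadapt 3.2, BWA 0.7.17-r1188, STARsolo 2.7.7a, UMI-tools 1.1.1, GATK 4.1.9.0 and the BDGP6 genome. The authors called variants over all libraries together, so the choice of sites leans to strongly edited libraries, and they state that known variants were removed. The deposited average editing frequency of a gene is a fraction from 0 to 1, given here in percent. The variant table that the authors deposited holds reads per base and library after removal of duplicate molecules. It names 10 libraries of no labelled sample, which were not used. The authors' own comparison tables hold differences and p-values and were not used.

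The 32873 A-to-G sites kept had QUAL above 250, and less than 0.95 of their reads carried G over the 14 samples. Gene means recomputed from them equalled the deposited values within 1e-06 in all 14 samples for 4998 of 5003 genes. Of the genes compared, 2016 matched Ensembl release 115 (BDGP6.54) by identifier, and 98.9% of sites lay in exons of their gene. Samples were grouped by label. Level, percentile rank, interaction and site shares were tested by two-sided moderated tests (limma 3.58.1 under R 4.3.3) without covariates, fitted to the groups compared alone, and overall means by exact permutation. Python 3.11.15, numpy 2.4.6, pandas 2.3.3, scipy 1.17.1 and matplotlib 3.10.9 were used for the rest. The fits were also run on simulated reads at the real depths, with outcomes that are not given here. A share of 0 carries an upper limit of 3 reads, for counting error only.

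Named are the 8 genes with the largest difference in each direction, in level and in rank, among called genes with at least 3 sites and no overlap. A gene that met this rule in level is not reported here. Also named are the 8 most edited in both tissues, the 4 most read of the 60 least edited, the genes the study names, up to 3 genes per group called in rank, and by like rules 6 genes for the interaction and 4 sites of each kind. Genes outside this rule (mitochondrial genes, CR45926, Ip259, Bub3, unc-13, robo1, shg, Imp, N, Nrx-IV, pnut, pico and the hemocyte and matrix genes other than LanB1) were chosen after their values were seen. The members and lists were chosen with earlier results of these data known. The alternatives were other limits on reads and quality, pooled reads, other scales and tests, a replicate block and each sample left out.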

Additional observations from a re-analysis of the deposited data

Results flagged for a closer look

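The gain from Schneider's medium to arsenite differed between tissues by a test of the difference itself (limma interaction, adjusted p under 0.05) for 172 genes with a larger gain in S2 cells and 1 gene with a larger gain in brain. The 6 largest were Kcmf1 (28.8 points), Fas1 (28.2 points), Fur2, a furin-type protease (28.2 points), CG8602 (25.2 points), Rcd-1, a component of the CCR4-NOT complex that removes poly(A) tails (24.9 points), and RhoGAP54D (23.4 points). Rcd-1 went from 2.16% to 28.1% in S2 cells and from 3.62% to 4.68% in brain (SE 5.76, adjusted p = 0.030). RhoGAP54D went from 14.8% to 34.6% in S2 cells and from 9.15% to 5.53% in brain (SE 4.76, adjusted p = 0.022). pico, which encodes an adaptor of actin and growth control, went the other way, from 25.4% to 20.9% in S2 cells and from 7.65% to 12.9% in brain (-9.70 points, SE 2.58, adjusted p = 0.039). No gene was called towards brain with pooled reads or with the replicate block. The same held without S2 arsenite replicate 2 or 3, brain arsenite replicate 2 or 3, or S2 Schneider's replicate 1 or 2. It also held without any 1 of the brain Schneider's samples. The call was lost in 9 of 17 alternatives for Rcd-1 and for Fas1 and in 10 of 15 for Fur2, most of them fits without 1 sample. In rank or divided by sample means none of these 7 genes was called.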

How the results depend on the processing

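Over the 3 samples of each tissue, S2 cells stayed above brain in every alternative tried for the overall level. The 12.2 points became 10.2 with sites of at least 5 reads in each sample, 14.2 with sites edited in Schneider's medium of both tissues and 14.4 at a call quality above 1000, and lay between 11.5 and 13.2 without 1 sample. The 1456 genes higher in S2 cells in level became 556 with at least 100 reads (610 genes tested), 658 with sites edited in Schneider's medium of both tissues and 33 divided by sample means, and between 1105 and 1438 without 1 sample. The 10 higher in brain became 165 with no limit on reads, 2 and 1 with at least 50 or 100 reads, 6 with sites of at least 5 reads, 0 without sites edited in uninduced samples, 2 when the genes compared were kept (chosen after seeing the data), 0 with sites edited in Schneider's medium of both tissues and 27 divided by sample means, and between 9 and 11 without 1 sample.

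The 39 and 34 genes called in rank became 228 and 286 with no limit on reads, 22 and 19 with at least 100 reads, 24 and 19 with sites of at least 5 reads, 10 and 8 without sites edited in uninduced samples, 15 and 13 when the genes compared were kept, 11 and 5 with sites edited in Schneider's medium of both tissues, 70 and 67 when all 12 induced samples shared the spread, and 95 and 91 at an unadjusted p under 0.01. Without 1 sample they lay between 3 and 32 and between 11 and 22. The tissue difference in gain became 285 and 0 with pooled reads, 9 and 3 divided by sample means, 2 towards brain with at least 50 reads, without sites edited in uninduced samples and at p under 0.01, and between 27 and 334 and between 0 and 2 without 1 sample. In rank it gave 1 gene towards brain without sites edited in uninduced samples, 33 and 32 genes at p under 0.01, and between 0 and 4 and between 0 and 2 without 1 sample. The 408 and 12 sites became 912 towards S2 cells with at least 10 reads, 60 and 0 with at least 50 reads, 10 and 22 divided by sample means, and 4 towards brain without sites edited in uninduced samples, and between 185 and 356 and between 9 and 13 without 1 sample. The cause of these changes was not tested.

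The replicate numbers did not pair the samples, since deviations from the group means of samples with the same number correlated between -0.029 and -0.0067 in level. With the replicate block 0 and 8 genes were called in rank, and 90 and 0 in the gain.

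The difference turned for Act5C in level (10.4 points without sites edited in uninduced samples or with sites edited in Schneider's medium of both tissues) and in rank (2.48 points with the latter), for Hsromega (3.49 points without sites edited in uninduced samples or with sites of at least 5 reads), and for lola in a quasi-binomial fit (-0.34 on the log odds scale, adjusted p = 0.027, past the threshold towards brain). Divided by sample means, the difference was -0.15 for Adar, -1.03 for CG1582, -0.88 for CG2982, -0.075 for Fmr1, -0.36 for Src42A, -1.70 for TfIIFbeta, -0.084 for pzg, -0.44 for row and -0.14 for wal, and for the sites -2.97 in Droj2, -4.50 in Hrb98DE and -4.39 and -4.40 in Xbp1. Of these the Hrb98DE and Xbp1 sites were past the threshold towards brain. Over all named genes and alternatives, 934 values in level kept their direction and side of the threshold, 66 lost the call, 36 gained one and 16 turned. In rank these counts were 662, 152, 9 and 1.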
